A study of Mus musculus with 2 samples.

Results

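Immune cells were picked out by their transcripts from single-cell RNA libraries of newborn mouse back skin and described in each library. Of 8206 cells that passed the quality limits, 178 were immune cells, 110 of 4844 in the control library and 68 of 3362 in the Gli2EKO library. A cell was counted as immune when at least 3 of 6 leukocyte genes (Ptprc, Lcp1, Fcer1g, Tyrobp, Laptm5 and Coro1a) had a unique molecular identifier (UMI, 1 counted RNA molecule) and when Krt5 and Krt14, the keratins of basal keratinocytes, together held fewer than 50 of every 10000 UMIs. The members were thus chosen by measured values, and the levels of these genes are a description of the choice, not a result. The cells came from mice of C57Bl/6N background at postnatal day 2, as suspensions of epidermal whole mounts of back skin made with collagenase and trypsin. The submitters' labels name 1 genotype per library, WT (called control here) and Gli2_EKO. Gli2EKO mice carried a loxP-flanked Gli2 gene, which encodes a transcription factor of the Hedgehog pathway, together with K14Cre, a transgene that makes Cre recombinase in keratinocytes, while controls were floxed littermates without Cre. How many mice each library pools was not given in the sources used here. Because each genotype has 1 library, a difference between the genotypes and a difference between the libraries cannot be told apart, no test was possible, and all 95% intervals below cover counting error only.

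Newborn skin holds few kinds of immune cells, most of which settled there before birth. Langerhans cells are macrophage-lineage cells of the epidermis that carry langerin (Cd207) and the adhesion molecule Epcam, and that acquire MHC class II molecules, which display peptides to T cells, in the first days after birth. Dendritic epidermal T cells lie between the keratinocytes and use an almost invariant gamma delta T cell receptor, whose delta chain has the constant segment Trdc and the variable segment Trdv4. Macrophages of the dermis carry the mannose receptor Mrc1, the haemoglobin scavenger receptor Cd163 and C1q, the recognition molecule of the classical complement pathway, built from the chains C1qa, C1qb and C1qc.

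MHC class II genes are among those that differed between the libraries in Langerhans-like cells, as given below. They are switched on together through a promoter block that ends in a Y box, the binding site of the factor NF-Y, and the transactivator Ciita acts on this block. The letters CTGATTGG were searched on both strands, where the reverse reads CCAATCAG, in RefSeq promoter windows of 300 bases (250 before the gene start and 50 after it, GRCm38.p6). They occurred in 1346 of 32851 windows, 4.10%. The windows of 11 genes were looked up. Of these genes, H2-Aa and H2-Eb1, the alpha chain of I-A and the beta chain of I-E, had a match 51 and 62 bases before the gene start. No match stood in the windows of H2-DMa, H2-DMb1, Cd207, C1qb, C1qc or Apoe, and no window was found for H2-Ab1, Ciita or C1qa. The promoters of H2-Aa (chr17:34287815-34287934, minus strand) and H2-Eb1 (chr17:34305745-34305864, plus strand) are printed from 5′ to 3′ with the match in capitals, to show the letters that both promoters hold at a like distance from the start.
H2-Aa: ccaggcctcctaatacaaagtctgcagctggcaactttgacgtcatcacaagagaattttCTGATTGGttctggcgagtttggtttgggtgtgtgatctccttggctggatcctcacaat
H2-Eb1: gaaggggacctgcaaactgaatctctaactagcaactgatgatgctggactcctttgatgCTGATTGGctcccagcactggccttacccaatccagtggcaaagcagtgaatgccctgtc
On GRCm39, the build of the deposited counts, H2-Aa lies on chromosome 17 from 34493404 to 34506798 on the minus strand, Cd207 on chromosome 6 from 83648190 to 83654839, and C1qa on chromosome 4 from 136623223 to 136626161. C1qc (136616466 to 136620376) and C1qb (136606009 to 136613511) lie beside C1qa on the same strand of chromosome 4. Trdc lies on chromosome 14 from 54380308 to 54386325.

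The targeted gene could not check the labels in these cells. According to the paper, Gli2 was removed in keratinocytes, so the immune cells were not the cells targeted. Whether Gli2 was intact in them was not tested. Gli2 had 34 UMIs in 16 of 110 control and 19 UMIs in 4 of 68 Gli2EKO immune cells, the exons removed by Cre were not given in the sources used here, and the assay reads the end of the RNA.

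The immune shares of the libraries differed by less than counting error. The share was 2.27% of control cells (95% interval, Clopper-Pearson, 1.87 to 2.73) and 2.02% of Gli2EKO cells (1.57 to 2.56), a ratio of 0.891 with an interval of 0.648 to 1.22. The median depth was 10413 UMIs per immune cell in the control library and 12296 in the Gli2EKO library. The libraries differed in how many immune cells resembled doublets, droplets with more than 1 cell. Scrublet, which scores each cell against simulated mixtures, placed 20 of 110 control and 31 of 68 Gli2EKO immune cells among the 8% of cells with the highest scores of their library. Without them 90 control and 37 Gli2EKO immune cells were left, and the ratio of shares was 0.592. Which of these cells were doublets was not tested. No barcode was shared by the libraries.

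Cells near the limits of the choice were few. Most immune cells had all 6 leukocyte genes (75 control and 43 Gli2EKO cells), and 11 cells had exactly 3. These 11 cells had a median of 4 of 21 other pan-leukocyte genes, which the choice did not use, against 2 of 21 in the 14 cells just outside with 2 leukocyte genes. On the keratin side, 5 immune cells lay between 25 and 50 keratin UMIs per 10000. Another 11 cells had at least 3 leukocyte genes but keratins between 62.7 and 459 per 10000, and were left out. The label was checked against the genes given for it: besides the leukocyte genes, Cd74, the chaperone of MHC class II, led all genes in immune over all other cells (6293 against 7.35 CPM, the UMIs of the gene scaled to a total of 1000000 in the class). H2-Aa, Cd3g, C1qa, C1qb and C1qc followed it.

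The leukocyte genes were used to choose the cells, so their levels here describe the choice and are not a result. Without thinning to equal depth, Ptprc and Lcp1 stood at close levels in both libraries. Fcer1g and Tyrobp stood higher in the Gli2EKO library. Ptprc, the pan-leukocyte phosphatase CD45, stood at 562 CPM in control and 498 CPM in Gli2EKO immune cells. It had a UMI in 94 of 110 and 61 of 68 cells. When the cells were thinned, the Gli2EKO level of Ptprc stood above 562 CPM, as given in the section on processing. The closeness of the Ptprc levels thus holds only without thinning. Lcp1, an actin-bundling protein of leukocytes, stood at 766 and 757 CPM. Fcer1g, a signalling subunit of Fc receptors, stood at 1229 CPM in control and 1690 CPM in Gli2EKO cells, and Tyrobp, the adaptor DAP12, at 1002 and 1803 CPM. As background outside the immune cells, keratinocytes were read, that is all cells with 50 or more Krt5 and Krt14 UMIs per 10000, which include the 11 cells with leukocyte genes above. Tyrobp had a UMI in 0.924% of control and 1.66% of Gli2EKO keratinocytes, at median depths of 13659 and 14224.5 UMIs. Cd74 stood at 6993 CPM in control and 5225 CPM in Gli2EKO immune cells, and at 19.4 and 5.76 CPM in keratinocytes, where 5.19% and 5.73% of cells had a UMI.

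**Figure D1:**
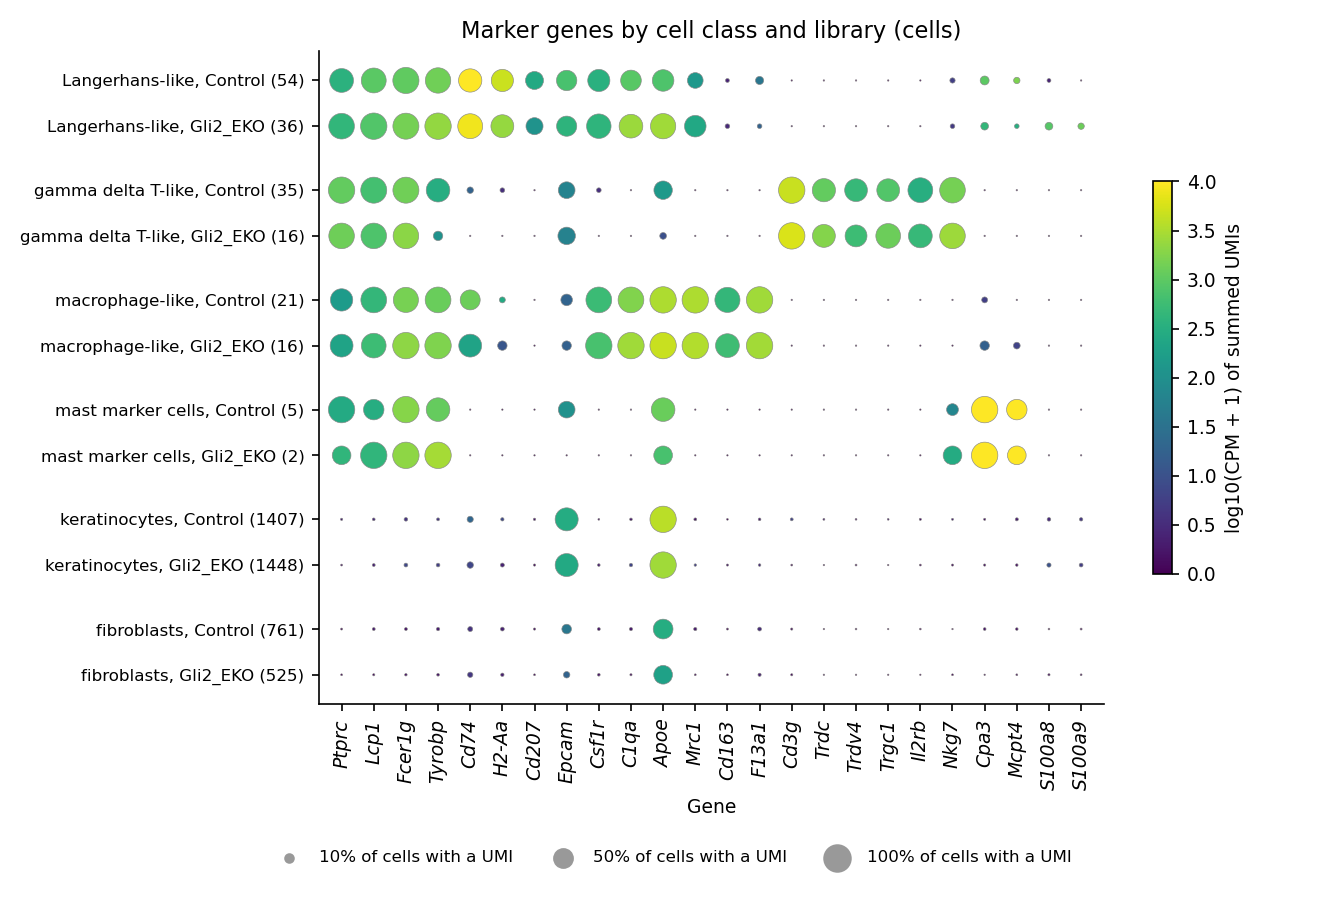
Marker genes (x axis) by cell class and library (rows); the dot area gives the percentage of cells with a UMI, and the colour the log10 of CPM plus 1 of the summed UMIs. Ptprc and Fcer1g, which were used to choose the cells, are found in all 3 immune classes. Among immune cells, Cd207 marks only the Langerhans-like class, with 25 of 54 control and 15 of 36 Gli2EKO cells. Trdc among immune cells marks only the gamma delta T-like class, with 27 of 35 and 12 of 16 cells.

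Clustering divided the immune cells into 3 groups in both libraries, named from marker lists. The largest, called Langerhans-like, was led by Cd207, H2-M5, Cacnb2, H2-M2 and H2-DMb1 and held 54 control and 36 Gli2EKO cells, 49.1% and 52.9% of the immune cells. The gamma delta T-like cluster was led by Cd3g, Ctsw, Cd3e, Xcl1 and Trdc and held 35 and 16 cells, 31.8% and 23.5%. The macrophage-like cluster was led by Cd163, Ccl7, Ccl8, F13a1 and Lyve1 and held 21 and 16 cells, 19.1% and 23.5%. Genes that lead a cluster were used to make it, and their level in that cluster is no finding. As a share of all cells kept, the ratio of Gli2EKO to control was 0.961 for Langerhans-like cells (0.612 to 1.49), 0.659 for gamma delta T-like cells (0.340 to 1.22) and 1.10 for macrophage-like cells (0.536 to 2.21). Without the cells of high Scrublet score, 17 control and 4 Gli2EKO macrophage-like cells were left, 18.9% and 10.8% of the immune cells left. Each interval for all the cells includes 1, and a change within these intervals was not detectable at these cell numbers. A clustering that left out every gene of the lists moved 2 control cells from the Langerhans-like to the T-like group and no other cell.

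Counts of myeloid and lymphoid genes separated the T-like from the macrophage-like cells. A cell was called lymphoid when at least 2 of 24 lymphoid genes, and more of these than of 17 myeloid genes, had a UMI, and myeloid in the reverse case. Of the control immune cells 38 were lymphoid (34.5%, interval 25.7 to 44.2), 68 myeloid (61.8%, 52.1 to 70.9) and 4 neither. Of the Gli2EKO immune cells 17 were lymphoid (25%, 15.3 to 37.0), 50 myeloid (73.5%, 61.4 to 83.5) and 1 neither. All 51 gamma delta T-like cells were lymphoid and all 37 macrophage-like cells were myeloid. Of all Langerhans-like cells, 47 control and 34 Gli2EKO cells were myeloid, 3 and 1 lymphoid, and 4 and 1 neither. Langerhans-like cells had a median of 8 myeloid genes in the control and 12 in the Gli2EKO library, and T-like cells a median of 18 and 16.5 lymphoid genes.

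**Figure D2:**
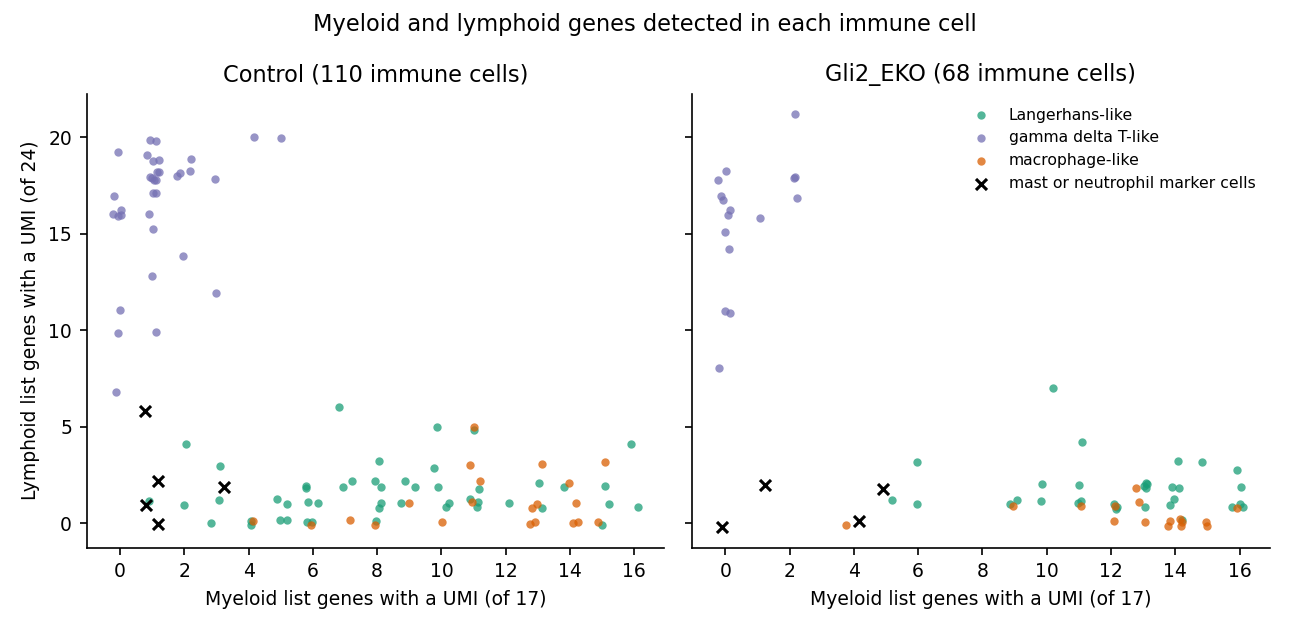
Each point is 1 immune cell, placed by the number of myeloid list genes (x axis, of 17) and lymphoid list genes (y axis, of 24) with a UMI, with a small random offset; colours give the cluster, and crosses mark cells with mast cell or neutrophil markers. Gamma delta T-like cells (medians of 18 control and 16.5 Gli2EKO lymphoid genes) lie along the y axis, and macrophage-like cells (medians of 13 and 13.5 myeloid genes) along the x axis.

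Other leukocytes were rare. Cells with at least 4 of 12 mast cell markers numbered 5 in the control and 2 in the Gli2EKO library. They had between 7 and 11 of the markers, and the mast cell proteases were almost all theirs: Mcpt4 held 1074 UMIs in 3 control cells and 175 UMIs in 2 Gli2EKO immune cells, and Tpsb2 held 448 UMIs in 5 and 223 UMIs in 2 cells. Cells with at least 4 of 11 neutrophil markers numbered 0 of 110 in the control library, which allows a share of up to 2.73% (3 counts of 110), and 2 of 68 in the Gli2EKO library. These 2 cells held the S100a9 (670 UMIs) and Retnlg (130 UMIs) counts of the immune cells, and no control immune cell had a UMI of either gene. All 9 of these cells fell into the Langerhans-like cluster, so values for Langerhans-like cells are given below without them (49 control and 32 Gli2EKO cells) unless stated otherwise. No immune cell had 3 or more of the 8 B cell markers, and Cd79a, Ms4a1, Pax5 and Vpreb3 were at 0 UMIs in all 178 cells. The classical dendritic cell markers Xcr1 and Cd209a were at 0 as well, and 1 immune cell had 4 or more of the 10 dendritic cell markers.

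Transcripts of other skin cells differed between the immune cells of the libraries. At least 4 of 7 fibroblast markers were found in 9 control immune cells (4 Langerhans-like, 2 T-like and 3 macrophage-like) and in 1 Gli2EKO immune cell. The summed fibroblast markers stood at 2019 CPM in control and 180 CPM in Gli2EKO immune cells, a log2 ratio of -3.49. Per cell they reached 380 per 10000 UMIs in the T-like cells of the control library against a median there of 1.39, so few cells held most of them. In the T-like cells the sum was 3053 and 83.4 CPM in the control and Gli2EKO library, and in the macrophage-like cells 3388 and 89.7 CPM. Keratinocyte markers went in different directions in the clusters. Their sum stood at 1050 CPM in the control and 1762 CPM in the Gli2EKO Langerhans-like cells (log2 ratio 0.75, 0.60 to 0.89). Of the 7 that could be compared in these cells, 4 were at least 2-fold higher, beside 1.85% of all 4270 genes compared. The medians per cell there were 3.93 and 3.16 per 10000 UMIs, and the highest cells had 69.0 and 127. In the T-like cells the sum was 990 and 300.1 CPM (-1.72), and in the macrophage-like cells 966 and 633 CPM (-0.61). The part of these cells in the gene differences below was not tested except where a value without them is given.

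Over all immune cells, 6737 genes had at least 50 UMIs in both libraries together. Of these, 1.56% were at least 2-fold higher and 5.11% at least 2-fold lower in the Gli2EKO library, and their median log2 ratio was -0.03. The lowest ratios belonged to genes of connective tissue. Col1a1, a chain of type I collagen, had 760 UMIs in the control and 26 in the Gli2EKO immune cells (log2 ratio -4.26), with 31.1% of the control UMIs in 1 cell. Col1a2 (-4.16), Sparc (-3.79) and Dcn (-3.53), also matrix genes of fibroblasts, stood beside it. Prnp, the prion protein, was spread more evenly, with 85 UMIs in 32 control cells and 5 UMIs in 5 Gli2EKO cells (-3.48, interval -5.14 to -2.20). Mid1, Plac9, Slit3, Ltbp1 and Pcdh7 completed the 10 lowest, between -3.88 and -3.35.

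The highest ratios over all immune cells were of 2 kinds. Stfa1, a cysteine protease inhibitor, had 19 UMIs in the control and 216 in the Gli2EKO cells (log2 ratio 4.12), but 72.7% of the latter were in 1 cell and the ratio was 0.44 without the mast and neutrophil marker cells. Krt79 (2.96), Cstdc5 (2.51), Tmco4 (2.19) and Krtdap (2.05) likewise had between 62.2% and 84.7% of their Gli2EKO UMIs in 1 cell, and without that cell Krt79 stood at 0.31. For the other kind no single cell held most of the Gli2EKO UMIs, and this kind included myeloid genes. Ms4a7, a membrane protein of macrophages, had 150 UMIs in 27 control cells and 399 UMIs in 34 Gli2EKO cells (2.02, interval 1.75 to 2.30), and Fcrls had 66 UMIs in 27 and 165 UMIs in 36 cells (1.93). The chemokine Ccl12 stood at 2.22, with 33.6% of its Gli2EKO UMIs in 1 cell. Ecm1 stood at 2.05 and Ocel1 at 1.87.

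Within the Langerhans-like cells the genes of MHC class II were lower in the Gli2EKO library, and the genes of C1q were higher. Summed over 6 class II genes (H2-Aa, H2-Ab1, H2-Eb1, H2-DMa, H2-DMb1 and Cd74), the level was 30251 CPM in the control and 17166 CPM in the Gli2EKO cells, a log2 ratio of -0.82 (interval -0.85 to -0.78). The sum of the C1q genes went the other way, from 2648 CPM in the control to 6446 CPM in the Gli2EKO cells (1.28, 1.20 to 1.37). For comparison, the median log2 ratio of the 4270 genes with at least 50 UMIs in all Langerhans-like cells was 0.00, with 1.85% of them at least 2-fold higher and 2.72% at least 2-fold lower. Cd207 had a UMI in 25 of 49 control and 15 of 32 Gli2EKO Langerhans-like cells, so the cluster can hold cells of more than 1 kind. Whether it held the same mix of kinds in both libraries was not tested.

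The chains of the class II molecules and their invariant chain were all lower. H2-Aa stood at 4952 CPM in control and 2427 CPM in Gli2EKO Langerhans-like cells (log2 ratio -1.03, -1.12 to -0.93), H2-Ab1 at 6158 and 3606 CPM (-0.77) and H2-Eb1 at 3540 and 1542 CPM (-1.20). Cd74, the invariant chain, which guards the peptide groove, stood at 13956 and 8367 CPM (-0.74, -0.79 to -0.69). H2-DMb1, a chain of the peptide exchange factor H2-DM, had a ratio of -0.70, whereas the interval of its partner H2-DMa included 0 (-0.18, -0.38 to 0.02). Ciita, the transactivator of the class II genes, had 76 UMIs in 27 of 49 control cells and 35 UMIs in 14 of 32 Gli2EKO cells (-0.86, -1.48 to -0.27). Ctss, the protease cathepsin S that degrades the invariant chain, was higher (0.33, 0.18 to 0.48), and the costimulatory ligand Cd86 had an interval around 0 (0.07, -0.25 to 0.38). Of the 12 class II genes on the list, 9 had at least 50 UMIs over all Langerhans-like cells. Of these, 0 were at least 2-fold higher and 1 at least 2-fold lower, beside 1.85% and 2.72% of all 4270 genes. The median log2 ratio of the 9 was -0.71.

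**Figure D3:**
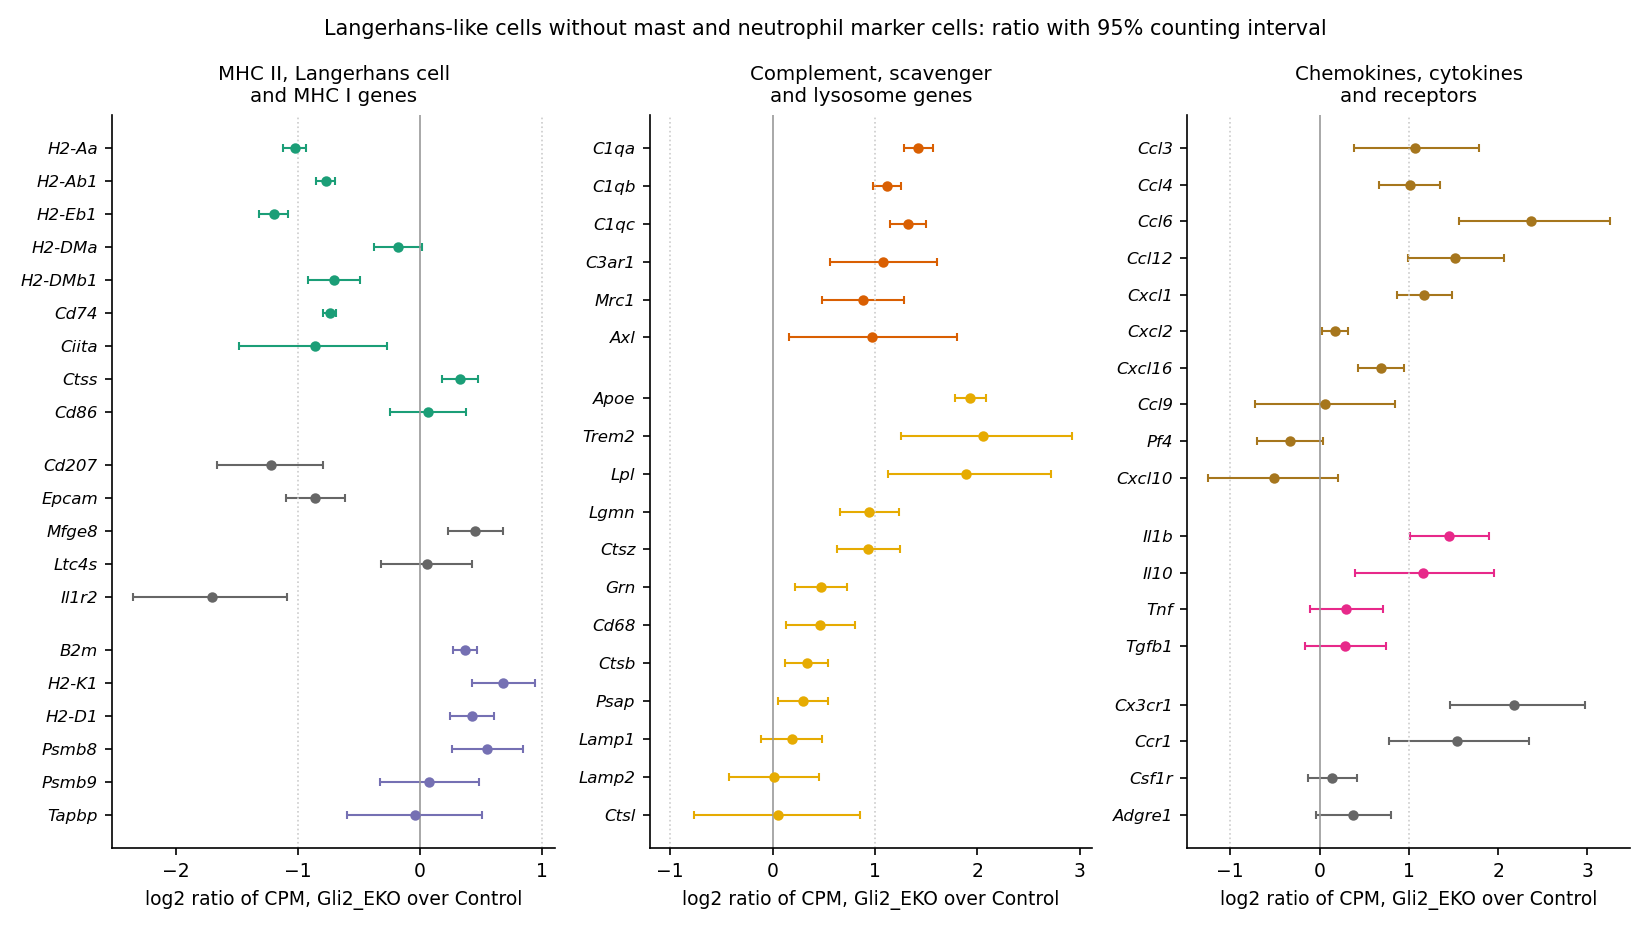
Log2 ratio of CPM, Gli2_EKO over Control (x axis), for genes of the Langerhans-like cells without the mast and neutrophil marker cells; points are ratios and lines their 95% counting intervals. H2-Aa (-1.03) and Cd207 (-1.22) lie to the left of 0, and C1qa (1.42) and Apoe (1.93) to the right.

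The class II difference was seen in the distribution of single cells. Control cells had a lower quartile of 44.3, a median of 297 and an upper quartile of 441 class II UMIs per 10000, with a highest value of 741, and 6 of 49 cells had none. Gli2EKO cells had a lower quartile of 32.0, a median of 134 and an upper quartile of 228, with a highest value of 422, and each of the 32 cells had some. The ranges thus overlapped, and the upper part of the control range, above 422, held no Gli2EKO cell. When each cell was thinned to 2000 UMIs, so that depth was equal, the medians were 270 in the control and 120 in the Gli2EKO cells.

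All 3 C1q genes were higher, and a larger share of cells had them. C1qa stood at 957.5 CPM in the control and 2566 CPM in the Gli2EKO Langerhans-like cells (log2 ratio 1.42, 1.28 to 1.56), with a UMI in 33 of 49 and 29 of 32 cells. C1qb had a ratio of 1.12 and C1qc of 1.32. Per cell, the 3 genes had a median of 9.55 UMIs per 10000 in the control, where 14 of 49 cells had none, and 64.4 in the Gli2EKO library, where 3 of 32 had none. Thinned to 2000 UMIs, the medians were 15 and 55. In keratinocytes, as background, 0.711% of control and 1.38% of Gli2EKO cells had a C1qa UMI.

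Apoe, the lipoprotein of lipid transport, had the same direction with a larger ratio. It stood at 731 CPM in control and 2787 CPM in Gli2EKO Langerhans-like cells (1.93, 1.78 to 2.08), and the median per cell was 1.38 and 21.0 UMIs per 10000. Apoe is also abundant in keratinocytes, where 99.6% of control and 99.7% of Gli2EKO cells had it, at 3798 and 2678 CPM, a lower level in the Gli2EKO library. The summed keratinocyte markers were higher in the Gli2EKO Langerhans-like cells (1066 and 1805 CPM without the mast and neutrophil marker cells). The part of keratinocyte RNA in the Apoe of the Langerhans-like cells was not tested. Without the cells of high Scrublet score the ratio of Apoe was 3.03, that of the summed class II genes -1.03 and that of C1q 1.57. None of the 6 other choices of Langerhans-like cells turned the direction of class II, C1q, Apoe or Cd207: the class II ratio lay between -1.03 and -0.79, and the C1q ratio between 1.23 and 1.57.

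**Figure D4:**
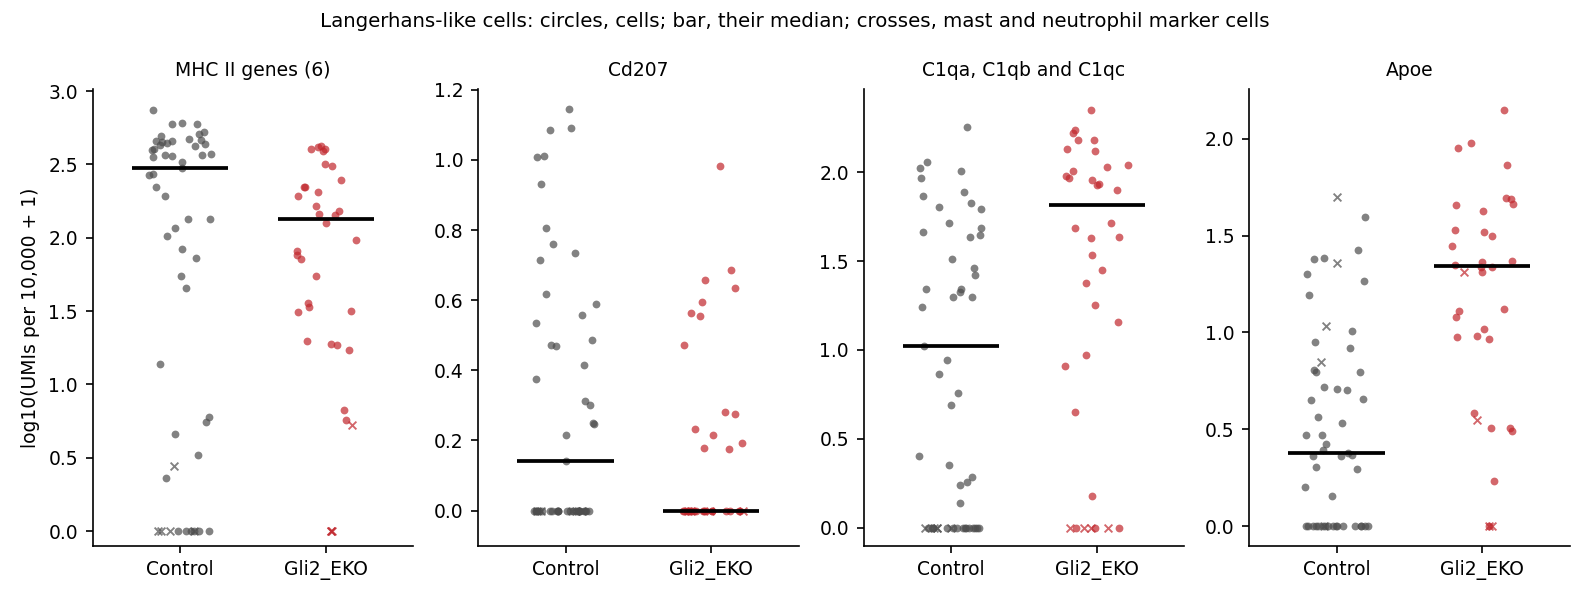
Log10 of UMIs per 10000 plus 1 (y axis) of class II genes, C1q genes and other genes in each Langerhans-like cell of the Control and Gli2_EKO libraries (x axis); circles are cells, bars their medians, and crosses the mast and neutrophil marker cells. The class II medians were 297 and 134, and the C1q medians 9.55 and 64.4 UMIs per 10000.

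Class II and C1q transcripts were found together in single Langerhans-like cells of both libraries. H2-Aa and C1qa both had a UMI in 29 of 49 control and 25 of 32 Gli2EKO Langerhans-like cells, and C1qa without H2-Aa was found in 4 cells of each library. At 2000 UMIs per cell, both were found in 17 of 49 control and 17 of 32 Gli2EKO cells. At that depth 20 control cells had H2-Aa without C1qa against 4 Gli2EKO cells, while 5 control and 9 Gli2EKO cells had C1qa without H2-Aa. Spearman's rho between the class II and C1q shares was 0.03 over 49 control cells and -0.55 over 32 Gli2EKO cells. With the mast and neutrophil marker cells it was 0.20 over 54 control and -0.12 over 36 Gli2EKO cells. In the 32 Gli2EKO cells, rho with depth was 0.39 for class II and -0.34 for C1q. In the 49 control cells it was 0.45 and 0.08. These values describe cells of 1 library each, and the part of depth in them was not tested.

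Among the genes that mark Langerhans cells, langerin was lower too. Cd207 had 170 UMIs in 25 of 49 control cells and 61 UMIs in 15 of 32 Gli2EKO cells (271 and 116 CPM, log2 ratio -1.22, -1.67 to -0.79), and every cell with Cd207 also had H2-Aa. At 2000 UMIs per cell, Cd207 was found in 9 of 49 control and 6 of 32 Gli2EKO cells. A smaller share of cells with Cd207 was thus not seen at equal depth. Cd207 had a UMI in 0.498% of control and 0.414% of Gli2EKO keratinocytes. Epcam had a ratio of -0.86 (717 and 396 CPM), beside a level of 290 and 257 CPM in keratinocytes, which express it themselves. Il1r2, the decoy receptor for interleukin 1, had a ratio of -1.70 (-2.36 to -1.09), and Cd24a one of -2.20, with 66 UMIs in 18 control and 12 UMIs in 6 Gli2EKO cells. Mfge8, which bridges dying cells to phagocytes, was higher (0.46, 0.23 to 0.68), and Ltc4s, an enzyme of leukotriene synthesis, had an interval around 0 (0.06, -0.32 to 0.43). Csf1r, the receptor through which Langerhans cells and macrophages survive, also had an interval around 0 (0.15, -0.13 to 0.42).

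Several genes of macrophages were higher in the Gli2EKO Langerhans-like cells. Cx3cr1, the fractalkine receptor, had 20 UMIs in 4 of 49 control cells and 76 UMIs in 18 of 32 Gli2EKO cells (log2 ratio 2.18, 1.46 to 2.97). Trem2, a lipid receptor of macrophages, had 17 UMIs in 5 control and 59 UMIs in 12 Gli2EKO cells (2.05). Ms4a7 stood at 92.4 and 592 CPM (2.68) and Fcrls at 46.2 and 194 CPM (2.07). The mannose receptor Mrc1 was found in 19 of 49 and 24 of 32 cells (0.88, 0.48 to 1.29), but at 2000 UMIs per cell in 9 of 49 and 6 of 32, so a larger share of cells with Mrc1 was not seen at equal depth. The complement receptor C3ar1 had a ratio of 1.08. Over all Langerhans-like cells, 6 of 15 complement and scavenger genes could be compared. Of the 6, 4 were at least 2-fold higher and 0 lower, with a median of 1.13. The shares over all 4270 genes compared in these cells were 1.85% higher and 2.72% lower. Of 16 genes of the lysosome and phagocytosis, 3 were at least 2-fold higher (Apoe, Lpl and Trem2) and 0 lower, with a median of 0.43. The protease Lgmn (0.94) and the cathepsin Ctsz (0.93) were above that median.

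MHC class I genes did not share the class II difference. B2m, the class I light chain, stood at 2732 CPM in control and 3535 CPM in Gli2EKO Langerhans-like cells (log2 ratio 0.37, 0.28 to 0.47), H2-K1 had a ratio of 0.68 and H2-D1 of 0.43. None of the 8 class I genes compared passed 2-fold in either direction, and their median over all Langerhans-like cells was 0.32. The class I genes had positive ratios in the other clusters as well, with medians of 0.82 over 5 genes in the T-like and 0.79 over 4 genes in the macrophage-like cells.

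Chemokines and cytokines were found in a minority of Langerhans-like cells. Of 20 chemokines 11 could be compared over all Langerhans-like cells. In the Gli2EKO library 6 were at least 2-fold higher and 0 lower, beside 1.85% and 2.72% of all 4270 genes compared. The median of the chemokines was 1.04. Of those that follow, each rested on a small number of cells. Without the mast and neutrophil marker cells, Ccl4 had 117 UMIs in 8 of 49 control and 197 UMIs in 7 of 32 Gli2EKO cells (1.01), Ccl12 43 UMIs in 10 and 103 UMIs in 5 cells (1.52), and Cxcl1 132 UMIs in 3 and 249 UMIs in 4 cells (1.17). For Ccl12, 76 of the 103 Gli2EKO UMIs were in 1 cell, and the other Gli2EKO cells held fewer UMIs than the control cells. The cytokine Il1b had 63 UMIs in 5 control and 144 UMIs in 7 Gli2EKO cells (1.45), and the anti-inflammatory Il10 had 23 UMIs in 5 and 43 UMIs in 3 cells (1.16). The chemokine receptor Ccr1 was spread more widely, with 21 UMIs in 12 and 51 UMIs in 23 cells (1.54, 0.78 to 2.34). Ccr7, the receptor with which dendritic cells leave for the lymph node, was found in 1 cell of each library. Of 20 cell cycle genes compared, 0 passed 2-fold in either direction (median -0.03, and 0.01 for their sum), and Mki67, the proliferation antigen, was found in 31 of 49 and 23 of 32 cells.

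Most gamma delta T-like cells of both libraries had transcripts of the delta chain of the dendritic epidermal T cell receptor. Trdc had a UMI in 27 of 35 control and 12 of 16 Gli2EKO cells, and of these 25 and 10 also had Trdv4. Trdc was at 0 UMIs in the Langerhans-like and macrophage-like cells. Trgv5, the gamma variable segment of the same receptor, had 11 UMIs in 8 control and 2 UMIs in 2 Gli2EKO cells. Trac, the alpha chain of other T cells, was found in 3 control cells and 1 Gli2EKO cell, and Cd3g, a subunit of the receptor complex, in all 51. Itgae, the integrin that binds E-cadherin on keratinocytes, was found in 33 of 35 and 14 of 16 cells. Without Trdc were 8 control and 4 Gli2EKO cells. In the control library these 8 all had Cd3g, but 1 had Cd3e and 0 had Trgc1, and 5 had Il7r and 6 Rora, the receptor for interleukin 7 and a transcription factor, both used by innate lymphoid cells. Among the 27 control cells with Trdc, 3 had Il7r and 5 had Rora.

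The T cell genes were lower over all immune cells but not within the T-like cells, whose share of the immune cells was 31.8% in the control and 23.5% in the Gli2EKO library. Over all immune cells, 15 genes of the T cell receptor and its signalling had a median log2 ratio of -0.78. Of the 15, 0 were at least 2-fold higher and 4 at least 2-fold lower, beside 1.56% and 5.11% of all 6737 genes. Within the T-like cells the same 15 genes had a median of 0.38, with 1 (Lat) at least 2-fold higher and 0 lower, where 1.77% of 2143 genes were at least 2-fold higher and 8.35% at least 2-fold lower. Their summed UMIs had a ratio of 0.38 in the T-like cells, and of 0.0087 without the cells of high Scrublet score. Trdc stood at 1089 CPM in control and 1784 CPM in Gli2EKO T-like cells (0.71, 0.47 to 0.95) and Cd3g at 4594 and 5835 CPM (0.35).

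Cell cycle and effector genes of the T-like cells differed, from small numbers of cells. Mki67 had 442 UMIs in 24 of 35 control cells and 53 UMIs in 5 of 16 Gli2EKO cells (log2 ratio -1.28, -1.72 to -0.87), and at 2000 UMIs per cell it was found in 20 of 35 and 3 of 16 cells. Ccna2, a cyclin of S and G2 phase, had a ratio of -1.97. Of 16 cell cycle genes, 0 were at least 2-fold higher and 3 lower, beside 1.77% and 8.35% of all 2143 genes compared. The median share of cell cycle UMIs per 10000 was 26.8 in the control and 11.6 in the Gli2EKO cells. The highest value, 247, was in a Gli2EKO cell. Nkg7, a protein of cytotoxic granules, was higher (0.82, 0.62 to 1.02), while Klrk1, the activating receptor NKG2D, was lower (-0.74, -1.37 to -0.17). Ifng, the cytokine interferon gamma, had 41 UMIs in the control cells, 34 of them in 1 cell, and 0 in the Gli2EKO cells, and Gzma had 23 UMIs, all in 1 Gli2EKO cell. Il17a was at 0 in both. Tyrobp, a gene of the choice itself, had a UMI in 28 of 35 control and 2 of 16 Gli2EKO T-like cells (308 and 108 CPM).

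Several genes that mark dermal macrophages had intervals that include 0 in the macrophage-like cells, while others were higher in the Gli2EKO library. Mrc1 was found in all 37 cells, at 3183 CPM in the control and 3519 CPM in the Gli2EKO library (log2 ratio 0.14, -0.01 to 0.30), and Cd163 in 19 of 21 and 13 of 16 cells (0.35, -0.05 to 0.76). F13a1, the coagulation factor XIII subunit, had a ratio of 0.06 and Igf1 one of 0.15. Of the 12 macrophage markers, 10 had ratios above 0 and 5 had intervals above 0, and their median was 0.33. The C1q genes were higher here also, with C1qa at 1750 and 2733 CPM (0.64, 0.45 to 0.84) and a median C1q share of 54.3 and 84.7 UMIs per 10000 in control and Gli2EKO cells. The C1qa ratio in the Langerhans-like cells was 1.42, and the difference of these ratios was not tested. Of the Gli2EKO macrophage-like cells, 12 of 16 had a high Scrublet score, against 4 of 21 in the control library.

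Class II was almost absent from the macrophage-like cells. H2-Aa had 60 UMIs in the control library, all in 1 cell, and 2 UMIs in the Gli2EKO library, and 86.2% of the control Cd74 UMIs were in 1 cell. Of 9 chemokines compared, 3 were at least 2-fold higher and 0 lower, where 3.31% of 1600 genes were at least 2-fold higher and 4.19% lower. Ccl12 had 31 UMIs in 11 of 21 control and 123 UMIs in 11 of 16 Gli2EKO cells (2.23, 1.65 to 2.85) and Ccl8 21 UMIs in 4 and 45 UMIs in 7 cells (1.34), while nearly all Cxcl2 was in 1 cell of each library. Lpl, the lipoprotein lipase, had a ratio of -1.71 (606 and 185 CPM), and of -1.20 without the cell that held 34.6% of the control UMIs. The fatty acid receptor Cd36 had one of -1.78 (873 and 253 CPM), and of -0.96 without the cell that held 47.4% of the control UMIs, whereas Apoe had one of 0.50 (3206 and 4537 CPM). Lpl had the opposite sign over all Langerhans-like cells (1.92), where 7 of 54 control and 6 of 36 Gli2EKO cells had it.

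Signals that immune cells receive from the skin were read in the keratinocytes (1407 control and 1448 Gli2EKO cells) and fibroblasts (761 and 525 cells) of the same libraries. Keratinocytes were here only cells that reached the Krt5 and Krt14 limit given above, so keratinocytes low in these keratins were left out. The keratinocytes that the paper kept after removing other clusters were more numerous in both libraries, and more in the control than in the Gli2EKO library. The numbers here thus do not measure how many keratinocytes each library held. Whether the limit took the same kinds of keratinocytes in both libraries was not tested. Of 26 ligands, 24 could be compared in keratinocytes, where 1 was at least 2-fold higher and 2 lower, beside 1.13% and 2.8% of all 13948 genes. Il34, the Csf1r ligand on which Langerhans cells depend, stood at 44.5 CPM in the control and 58.7 CPM in the Gli2EKO keratinocytes (log2 ratio 0.40, 0.28 to 0.52), and Csf1, the other ligand, at 6.29 and 11.3 CPM (0.85). Tgfb2, of the TGF-beta family that Langerhans cells need, was lower (-1.33, -1.50 to -1.15), and Tgfb1 differed less (-0.23). Ccl20, the ligand of Ccr6, was higher (0.86), and Ccl27a, a skin-homing chemokine, was lower (-0.65). Cxcl12 had a ratio of -1.25. Skint1, which selects the T cells of the epidermis in the thymus, had a ratio of -0.54 and Skint7 one of -0.68, whereas Skint3 had one of 0.43. Tslp, a cytokine of damaged epidermis, had 12 UMIs in the control and 289 in the Gli2EKO keratinocytes (4.53), but 85.8% of the latter were in 1 cell, and the ratio was 1.71 without it.

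In fibroblasts 17 of the 26 ligands could be compared, and 2 were at least 2-fold higher and 3 lower, beside 0.934% and 2.39% of all 12308 genes. The monocyte chemokines Ccl2 (29.3 and 63.0 CPM, log2 ratio 1.10) and Ccl7 (12.6 and 39.8 CPM, 1.66) were the higher ones. Without the cells of high Scrublet score, 0 ligands were at least 2-fold higher in fibroblasts. The alarmin Il33 was lower (-1.33), and so were the adhesion molecules Cadm1 (-1.28) and Epcam (-1.14), the latter an epithelial gene. Cxcl12 stood at 227 CPM in control and 133 CPM in Gli2EKO fibroblasts (-0.77), and Kitl, the growth factor of mast cells, at 67.0 and 37.1 CPM (-0.85).

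**Figure D5:**
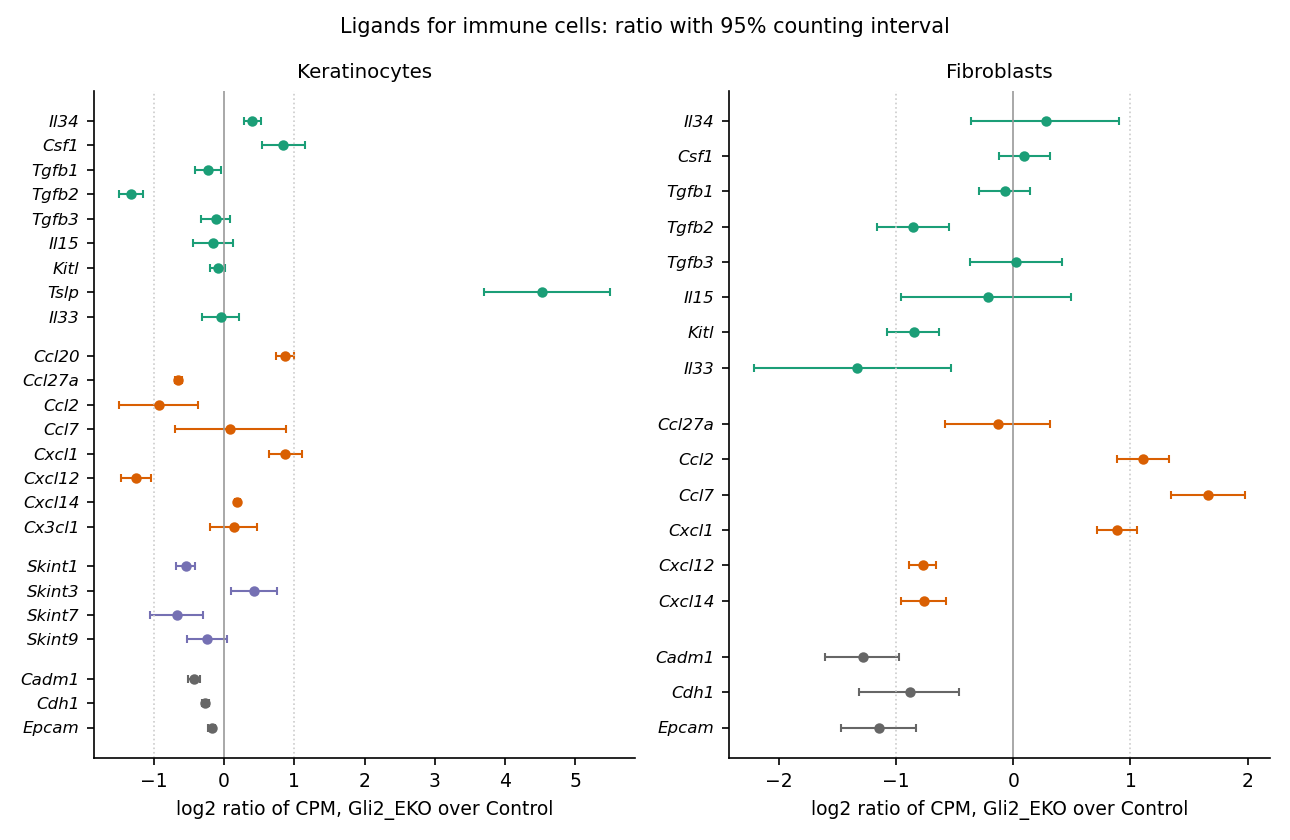
Log2 ratio of CPM, Gli2_EKO over Control (x axis), of ligands for immune cells in keratinocytes and fibroblasts; points are ratios and lines their 95% counting intervals. Most keratinocyte ligands lie within 2-fold, with Tgfb2 (-1.33) and Cxcl12 (-1.25) below and Tslp (4.53, mostly from 1 cell) above.

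Genes of the Hedgehog pathway itself were sparse in the immune cells. Ptch1, the Hedgehog receptor, stood at 85.8 CPM in control and 31.8 CPM in Gli2EKO immune cells, beside 337 and 357 CPM in fibroblasts, whose markers were also lower in the Gli2EKO immune cells.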

How the data were processed

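Single-cell RNA was measured with a 10x polyA assay in 2 libraries of back skin at postnatal day 2. The authors aligned the reads with Cell Ranger 9.0.1 to GRCm39 and deposited the filtered UMI counts of 56694 genes per barcode, whole numbers without normalization, for 6326 control barcodes (71021773 UMIs) and 4296 Gli2EKO barcodes (48866478 UMIs). A barcode was kept as a cell when its detected genes numbered above 1000 and below 8000 and its mitochondrial share was below 15%. The study removed doublets with scDblFinder. That tool was not used here, no cell was removed as a doublet in the values reported, and an alternative left out, in each library, the 8% of cells that scored highest in Scrublet (scanpy 1.11.5, expected rate 0.06). Immune cells were clustered in Seurat 5.3.0 under R 4.3.3 with 2000 variable genes, 20 principal components and resolution 0.5, without integration, and clusters were named from markers.

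For each class and library the UMIs of all cells were added up and expressed as CPM. Intervals, all at 95%, were Clopper-Pearson for shares and conditional binomial for ratios (scipy 1.17.1). Ratios were read for genes with 50 or more UMIs in the pair of libraries, and their background shares printed beside counts of genes past 2-fold. No test was made, since a genotype has 1 library. The members and the gene lists (19 for cell types and 22 for pathways and functions) were chosen with earlier results of these data known. Named are genes of the lists, leading genes of clusters, and the 10 highest and 10 lowest ratios among genes with at least 3 UMIs in each library and a UMI in 10% of cells. The values without the top cell of a gene, and without mast and neutrophil marker cells, the clustering without list genes, the list sums without high Scrublet scores and the other choices of Langerhans-like cells were added after the data had been seen. Some results are not reported here. The calculations were tested on simulated data. Gene positions on GRCm39 are those of GENCODE M39, looked up by gene identifier.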

Additional observations from a re-analysis of the deposited data

Results flagged for a closer look

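Among the genes of the lists, 5 had ratios of Gli2EKO to control of at least 2-fold in opposite directions in a pair of clusters, with intervals on opposite sides of 0. The differences between the clusters were not tested. Apoe had a log2 ratio of 1.86 in all Langerhans-like cells and -4.05 in gamma delta T-like cells, where it had 57 UMIs in 17 of 35 control cells and 1 UMI in 1 of 16 Gli2EKO cells. Krt17, a keratin of hair follicle and activated keratinocytes, had 1.496 in Langerhans-like and -3.13 in T-like cells. The summed keratinocyte markers had a ratio of the same sign as Apoe and Krt17 in both clusters, 0.75 and -1.72, and their part in these ratios was not tested. Uty, a gene of the Y chromosome, had -1.02 in Langerhans-like and 1.92 in T-like cells, and the sex of the mice in each library was not given in the sources used here. Lpl had 1.92 in Langerhans-like and -1.71 in macrophage-like cells. Zfp36, an immediate early gene, had -1.39 in Langerhans-like and 1.06 in macrophage-like cells.

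Immune transcripts also stood in barcodes outside the choice of cells. There were 32 barcodes (18 control and 14 Gli2EKO) with 1000 or fewer detected genes and at least 3 of the leukocyte genes, at a median of 1074 UMIs. Of these, 12 had at least 3 Langerhans cell markers, 11 at least 3 macrophage markers and 1 at least 3 gamma delta T cell markers. A further 11 cells (4 control and 7 Gli2EKO) had at least 3 leukocyte genes but 50 or more keratin UMIs per 10000. Their median was 25166 UMIs, 6 of the 11 had a high Scrublet score, and 8 had at least 3 Langerhans cell, 6 macrophage and 4 gamma delta T cell markers.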

How the results depend on the processing

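No paired analysis was possible because each genotype has 1 library. With 1 library per genotype, the depth of counting shows how well a ratio is known for these cells only. Of 355 alternative values, 264 stayed within counting error or 1.5 times the value reported, 87 moved and 4 reversed.

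Without the cells of high Scrublet score the Gli2EKO immune share was 1.20%, the ratio of shares 0.592 and the macrophage-like share of Gli2EKO immune cells 10.8%. In the same setting the log2 ratios of summed lists in Langerhans-like cells were -0.85 for class II, 0.52 for class I, 1.604 for complement and scavenger genes, 1.00 for the lysosome (0.997), 1.00 for chemokines (0.999) and 0.13 for the cell cycle. For T-like cells they were 0.0087 for the T cell receptor and -1.10 for the cell cycle, and for all immune cells -0.89 for the T cell receptor and -0.39 for the cell cycle. Chemokines in all immune cells reversed to -0.11 and Mrc1 in all immune cells to -0.088. Ligands at least 2-fold higher numbered 2 in keratinocytes and 0 in fibroblasts. With the Gli2EKO clusters weighted to the control shares, the ratios over all immune cells were -0.45 for class II, 0.97 for complement and scavenger genes, 0.67 for the lysosome, 0.43 for chemokines and -0.30 for the T cell receptor.

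Thinned to 2000 UMIs per cell, the CPM were 716 for Ptprc in Gli2EKO cells, 682 for Lcp1 in control cells, 1332 and 1993 for Fcer1g and 5791 and 3761 for Cd74 in control and Gli2EKO cells. Genes at least 2-fold higher and lower numbered 258 and 788 in immune cells and 236 and 473 in Langerhans-like cells at a minimum of 20 UMIs. With no minimum they numbered 2546 and 4830, and 2672 and 3977, since genes of few UMIs are then counted. With the mean of per-cell CPM they numbered 151 and 181 in Langerhans-like cells. At a keratin limit of 25 per 10000, Krt79 reversed to -1.13 in immune and -1.64 in Langerhans-like cells. Without the 1 cell that held most of it, it stood at 0.31 and 0.24. The causes of these changes were not tested.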

Other observations

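The immediate early genes, which cells switch on during tissue dissociation, differed in sign between the myeloid clusters. In the Langerhans-like cells 12 of 16 had negative log2 ratios, with a median of -0.50 and with Zfp36 (-1.39) lowest and Nr4a1 (1.07) highest. Their summed UMIs had a ratio of 0.02, of the other sign. In the macrophage-like cells 11 could be compared, with a median of 1.06. Of the 11, 6 were at least 2-fold higher and 1 at least 2-fold lower, beside 3.31% and 4.19% of all 1600 genes. Hspa1b (1.55), Atf3 (1.22) and Ier2 (1.20) were among the higher ones, while Egr1 (-1.10) and Fos (-0.95) were lower. In the T-like cells 13 were compared, with a median of -0.16.

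Genes of the interferon response had a median of 0.25 over 8 genes in the Langerhans-like cells, and 0 of them passed 2-fold. Rsad2 (-0.96) and Ifit2 (0.92) were the extremes. The Fc receptor list had 2 of 6 genes at least 2-fold higher in the Langerhans-like cells, Trem2 (2.08) and the kinase Syk (1.31), and 0 lower. The shares over all 4270 genes compared there were 1.85% higher and 2.72% lower.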
